A study of Homo sapiens with 24 samples.

Results

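The genes described here encode the subunits of the proteasome and the transcription factor NFE2L1. They were chosen by gene symbol, as 40 named members: 39 proteasome genes and NFE2L1. Of these, 37 had a row among the 37411 genes of the deposited count table, and all 37 passed the filter on low counts that 17409 genes passed. The other 3, PSMB3, PSMB8 and PSMB9, were not analysed here. The measured members included 7 alpha and 6 beta subunits of the 20S core and 6 ATPases of the 19S regulatory particle. A further 12 PSMD genes, PSMD5 among them, are counted here as non-ATPase subunits of that particle. The others were 4 proteasome activators, PSMB10 as the only measured immunoproteasome subunit, and NFE2L1.

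The samples were cultures of PC9, an established human lung adenocarcinoma cell line that carries an activating EGFR mutation. RNA-seq libraries came from biological triplicates of 8 groups, which combined medium without (-Asn) or with (+Asn) asparagine, the drug ISRIB at 200 nM or its DMSO vehicle at 0.004%, and 24 or 6 hours of exposure. ISRIB blocks the integrated stress response by acting on the translation initiation factor eIF2B. That response is switched on by amino acid shortage and acts on genes through ATF4. The design therefore asks how proteasome genes respond when asparagine is withdrawn, and how that response changes when the stress response is inhibited. All groups share this single cell line and the base medium RPMI-1640, so nothing here speaks to other cells.

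The proteasome degrades ubiquitin-tagged proteins and so returns amino acids to the cell. Its barrel-shaped 20S core is built of rings of alpha subunits, which form the gate, and rings of beta subunits, of which PSMB5, PSMB6 and PSMB7 carry the protease sites. In the immunoproteasome these sites are replaced by PSMB8, PSMB9 and PSMB10. The 19S particle caps the core: its PSMC ATPases unfold substrates, and its PSMD subunits hold the cap together, bind ubiquitin or remove it. PSME1 and PSME2 form the activator PA28 alpha-beta, PSME3 forms the nuclear activator PA28 gamma, and PSME4 is the activator PA200. NFE2L1 is made as a membrane protein of the endoplasmic reticulum, is released by proteolysis when proteasome activity falls, and then raises transcription of proteasome genes through antioxidant response elements in their promoters.

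Because NFE2L1 acts through that element, the promoters of the members were searched for its letters, TGACNNNGC, on both strands. The windows ran from 250 bases before to 50 bases after each RefSeq start site on GRCh38.p14, so some windows of a gene overlapped each other. The letters occurred in 12 of 43 windows of the 35 members with an entry (27.9%), against 4687 of all 35116 windows (13.3%). The 12 windows belonged to 12 members, including 2 that were not measured here. The composite element bound by CEBP and ATF proteins, searched as TGATGNAAN on both strands, occurred in 0 of 43 member windows and in 1268 of all windows (3.61%). The 4 windows below are those with TGACNNNGC whose genes had the largest called fold changes at 24 hours, and they are shown so that the element can be read beside those values. Each is written 5′ to 3′ along the strand of its gene, with the matched letters in capitals.
PSMD1, chr2:231056617-231056916, plus strand: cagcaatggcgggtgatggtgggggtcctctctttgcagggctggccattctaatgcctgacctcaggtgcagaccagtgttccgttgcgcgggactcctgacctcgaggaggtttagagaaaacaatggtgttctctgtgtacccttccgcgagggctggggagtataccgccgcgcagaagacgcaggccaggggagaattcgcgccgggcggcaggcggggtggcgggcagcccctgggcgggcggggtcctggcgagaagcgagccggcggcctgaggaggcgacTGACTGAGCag
PSME4, chr2:53970944-53971243, minus strand: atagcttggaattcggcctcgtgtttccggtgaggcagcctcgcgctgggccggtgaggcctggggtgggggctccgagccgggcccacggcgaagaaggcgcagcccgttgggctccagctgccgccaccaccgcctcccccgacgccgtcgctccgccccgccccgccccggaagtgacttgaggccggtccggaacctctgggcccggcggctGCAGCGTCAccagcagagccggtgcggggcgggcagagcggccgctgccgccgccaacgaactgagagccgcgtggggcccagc
PSMC4, chr19:39970915-39971214, plus strand: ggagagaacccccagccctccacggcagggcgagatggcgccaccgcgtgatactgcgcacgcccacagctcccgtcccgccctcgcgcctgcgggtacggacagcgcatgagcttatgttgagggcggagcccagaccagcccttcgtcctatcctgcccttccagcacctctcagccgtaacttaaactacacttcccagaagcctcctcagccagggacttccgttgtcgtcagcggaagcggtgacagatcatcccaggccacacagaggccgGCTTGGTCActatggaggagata
PSME1, chr14:24135944-24136243, plus strand: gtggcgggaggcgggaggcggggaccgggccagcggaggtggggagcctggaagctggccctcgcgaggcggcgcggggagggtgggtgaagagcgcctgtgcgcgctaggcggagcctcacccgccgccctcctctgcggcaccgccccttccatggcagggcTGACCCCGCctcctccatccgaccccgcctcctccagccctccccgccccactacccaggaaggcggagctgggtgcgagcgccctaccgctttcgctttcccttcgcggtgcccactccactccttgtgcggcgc
The match began 40 bases after the start site in PSMD1 and 28 bases after it in PSMC4, and at -34 in PSME4 and -86 in PSME1. Among these 4 genes the later values run in both directions: PSMC4 rose, and PSMD1, PSME4 and PSME1 fell. PSMC5, which rose, also held the letters. So did PSME2, PSMA4, PSMD3, PSMD12 and PSMD5, which were not called in that comparison. PSMA7, PSMB1, PSMB6, PSMB7 and PSMD4 had no window to search. A match to these letters describes the window and says nothing of whether NFE2L1 was bound there.

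The libraries held between 16737384 and 27495861 counts, and common dispersion was 0.0176 over 17409 genes. ASNS, the asparagine synthetase gene and a target of ATF4, checked the labels: it averaged 166 ± 13.6 CPM (counts of a gene scaled to library size) in 6 hr -Asn DMSO cells, 26.7 ± 3.34 CPM in 6 hr -Asn ISRIB cells and 29 ± 2.11 CPM in 6 hr +Asn DMSO cells (SD, n = 3 each). Summed epithelial markers (7 genes) ranged over 9140 to 13100 CPM, and markers of other cell types (9 genes) over 5.18 to 14.3 CPM. The libraries differed in how counts varied with the GC content of a gene's exons, and 3 of them, called GC-skewed below, had slopes more negative than the rest: 24 hr +Asn ISRIB replicate 3, 6 hr -Asn ISRIB replicate 3 and 6 hr +Asn ISRIB replicate 1. Their slopes were -0.39, -0.38 and -0.20 log2 units per 10 points of GC content, in that order. Results were also computed without these 3 and after a correction for GC content. Calls of members that ended under either are given beside the results. Alternative fits are not reported here for genes other than the members, so how far the calls of those genes hold is not shown. None of the 3 is in 24 hr -Asn ISRIB or 24 hr -Asn DMSO, so leaving them out cannot show the part of GC skew in that comparison. The slopes there were 0.22, -0.05 and 0.16 with ISRIB, and -0.18, 0.00 and -0.18 with vehicle.

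The members' levels were compared on a scale of CPM per kilobase of exon (CPM per kb), on which the medians of the core subunits ran from 1.13 for PSMA2 to 177 for PSMA7. On this scale PSMA7 had the highest median level of the members over the 24 libraries (177 CPM per kb), followed by PSMB7 (113 CPM per kb), PSMB6 (100 CPM per kb), PSMC3 (96.3 CPM per kb) and PSMD2 (95.3 CPM per kb). Of the 3 constitutive protease subunits, PSMB5 was the lowest at 49.3 CPM per kb. PSMB10, the immunoproteasome counterpart of PSMB7, was at 1.56 CPM per kb, with 32 to 90 counts per library. NFE2L1 was at 34.3 CPM per kb.

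Low levels of PSMC1, PSMA2 and PSMA6 stood beside high counts for processed copies of the same genes. PSMC1, a 19S ATPase, had 2 to 16 counts per library, while the 10 pseudogenes named for it summed to 1557 to 2528 counts, which was 99.3% to 99.9% of the total of gene and pseudogenes. For PSMA6 and PSMA2, alpha subunits of the core, the pseudogenes held 84.9% to 97.3% and 78.9% to 87.1% of that total. The pseudogene of the activator PSME2 held 45.6% to 55.1%, those of the 19S subunits PSMD7, PSMD12 and PSMD8 held 27.3% to 35.2%, 21.5% to 25.0% and 13.9% to 18.1%, and that of PSMA3 held 3.33% to 6.87%. How the reads were divided between gene and copy is not given in the sources used here, so values of these members are uncertain. Strand use is likewise not stated, and reads from overlapping genes on the opposite strand, such as NRDE2 over 75.82% of PSMC1 exons, FTSJ3 over 19.47% of PSMC5 exons, HTR2B over 10.78% of PSMD1 exons and BECN1 over 5.82% of PSME3 exons, cannot be told apart from the members' own. Genes on the same strand overlap members too, and knowing the strand would not separate them. These include AC040162.1 over 34.75% of PSMB10 exons and AC018523.2 over 24.66% of PSMA1 exons. AC010132.3 covers 14.64% of PSMA2 exons and AL121594.1 14.13% of PSMA6 exons. How reads in these stretches were assigned is not given.

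After 6 hours without asparagine, in vehicle, NFE2L1 transcripts rose and those of PSMD1 and PSME3 fell. These were 3 of 37 members, or 8.11%, against 4.57% of all genes called, 3.31% higher and 1.26% lower (edgeR quasi-likelihood test, with p-values adjusted over all tested genes by Benjamini-Hochberg and a threshold of 0.05). The median log2 fold change was -0.03 over the members and 0.01 over all genes. No subunit of the 20S core was called, in a class of 13 measured genes of which 1 had an unadjusted p under 0.05.

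NFE2L1 had 295, 293 and 277 CPM in 6 hr -Asn DMSO libraries, against 219, 234 and 227 CPM in 6 hr +Asn DMSO libraries. All 3 starved libraries were above all 3 fed ones, and the log2 fold change was 0.35 (SE 0.09, adjusted p = 0.022). The call was lost without 6 hr -Asn DMSO replicate 1 or 2 or without 6 hr +Asn DMSO replicate 1 or 3 (adjusted p 0.069 to 0.11). In each of these fits 1 member was called, against 2.7% to 3.35% of all genes. The NFE2L1 call was also lost without a filter on low counts (0.078). With the GC correction the log2 fold change was 0.43 and the adjusted p 1.4e-05.

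PSME3, the PA28 gamma activator, had 289, 287 and 300.4 CPM in 6 hr -Asn DMSO libraries, against 378, 375 and 414 CPM in 6 hr +Asn DMSO libraries. The groups did not overlap, and the log2 fold change of PSME3 was -0.41 (SE 0.06, adjusted p = 0.00016). PSMD1, a large scaffold subunit of the 19S base, had 241, 242 and 271 CPM in 6 hr -Asn DMSO libraries, against 322, 321 and 363 CPM in 6 hr +Asn DMSO libraries. Its log2 fold change was -0.42 (SE 0.11, adjusted p = 0.027), again with every starved library below every fed one. The PSMD1 call was lost in 5 of the 6 fits that left out 1 of these libraries, with adjusted p from 0.052 to 0.13, and was kept without 6 hr -Asn DMSO replicate 3. In bulk RNA a lower value can come from fewer cells of a kind or from less RNA per cell, and these cannot be told apart.

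The other 34 members were not called at this time. Within the classes, the log2 fold changes nearest to 0 were 0.03 for the ATPase PSMC2, 0.02 for the lid subunit PSMD13, 0.04 for the alpha subunit PSMA3, -0.01 for the protease subunit PSMB7 and 0.00 for PSME2. The lowest among the core genes was -0.16 for the protease subunit PSMB5 (adjusted p = 0.44), and the highest 0.25 for PSMB1, a structural beta subunit (adjusted p = 0.22). PSMC1 gave -1.10, from the few counts described above (adjusted p = 0.25). PSMB10 gave -0.32 (adjusted p = 0.57).

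**Figure D1:**
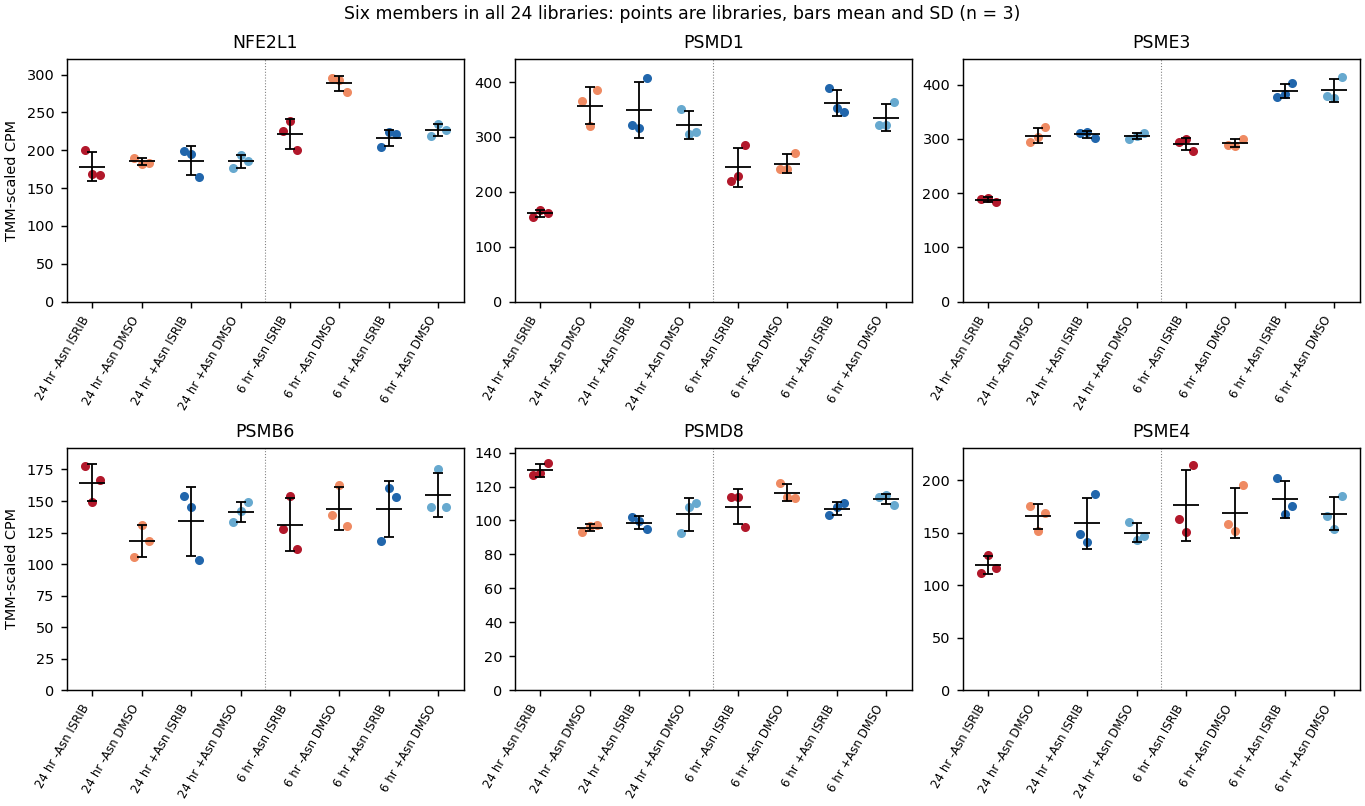
Level of 6 members in each library, in TMM-scaled CPM on axes that start at 0, with points for libraries and bars for the mean and SD of 3. NFE2L1 stands highest in 6 hr -Asn DMSO (277 to 295 CPM), and PSMD1 and PSME3 stand lowest in 24 hr -Asn ISRIB (154 to 167 and 183 to 191 CPM).

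With ISRIB added to asparagine-free medium for 6 hours, NFE2L1 fell and no other member was called. That is 1 of 37 members, against 2.19% of all genes called, 0.551% higher and 1.64% lower. NFE2L1 had 225, 239 and 199.9 CPM in 6 hr -Asn ISRIB libraries, against 295, 293 and 277 CPM in 6 hr -Asn DMSO libraries. The ISRIB libraries were all below the vehicle libraries, and the log2 fold change was -0.38 (SE 0.09, adjusted p = 0.018). The call was lost without 6 hr -Asn DMSO replicate 1 (adjusted p = 0.094) or 2 (0.077), without 6 hr -Asn ISRIB replicate 3 (0.1), with no filter on low counts (0.051), and where only these 2 groups entered the fit (0.27). Without the 3 GC-skewed libraries it was -0.30 (adjusted p = 0.029).

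PSMD1 and PSME3 were not called in this comparison. PSMD1 had 219.8, 229 and 285 CPM in 6 hr -Asn ISRIB libraries, against 241, 242 and 271 CPM in 6 hr -Asn DMSO libraries, and its log2 fold change was -0.04 (SE 0.11, adjusted p = 0.96). PSME3 had 294, 299 and 277 CPM with ISRIB, against 289, 287 and 300.4 CPM with vehicle, a log2 fold change of -0.01 (SE 0.06, adjusted p = 0.99). The ranges of the groups overlapped for both genes.

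In ISRIB, 6 hours of asparagine withdrawal gave 2 called members, PSMD1 and PSME3, both lower, against 2.3% of all genes called (1.63% higher and 0.666% lower). PSMD1 averaged 245 ± 35.3 CPM in 6 hr -Asn ISRIB cells and 362 ± 23.2 CPM in 6 hr +Asn ISRIB cells (SD, n = 3 each; log2 fold change -0.57, SE 0.11, adjusted p = 0.0054). PSME3 averaged 290.1 ± 11.4 CPM in 6 hr -Asn ISRIB cells and 387 ± 13.1 CPM in 6 hr +Asn ISRIB cells (log2 fold change -0.42, SE 0.06, adjusted p = 0.0005). NFE2L1 averaged 221 ± 19.7 CPM in 6 hr -Asn ISRIB cells and 217 ± 11.2 CPM in 6 hr +Asn ISRIB cells, a log2 fold change of 0.03 (adjusted p = 0.95). Both calls held in all 6 fits that left out 1 library and were lost where only these 2 groups entered the fit. That fit called 0% of all genes. It gave -0.58 for PSMD1 (adjusted p = 0.31) and -0.43 for PSME3 (adjusted p = 0.37).

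The withdrawal responses in ISRIB and in vehicle were compared directly as a difference of log2 fold changes. For NFE2L1 at 6 hours this difference was -0.32 (SE 0.12, adjusted p = 0.65), so the loss of its rise with ISRIB did not pass the test. After the GC correction it was -0.34 with an adjusted p of 0.025. By edgeR 0 members were called in this 6-hour comparison, 2 had an unadjusted p under 0.05, DESeq2 also called 0, and 0.718% of all genes were called, 0.0574% higher and 0.661% lower. For PSME3 the difference was -0.00 (SE 0.09), and for PSMD1 -0.15 (SE 0.15).

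After 24 hours without asparagine in vehicle, no member passed the test. By edgeR 0 members were called, 5 had an unadjusted p under 0.05, DESeq2 called 0, and 0.00574% of all genes were called. NFE2L1 averaged 185 ± 4.70 CPM in 24 hr -Asn DMSO cells and 185 ± 9.03 CPM in 24 hr +Asn DMSO cells (SD, n = 3 each; log2 fold change -0.00, SE 0.09). PSME3 averaged 306 ± 13.8 CPM in 24 hr -Asn DMSO cells and 306 ± 5.63 CPM in 24 hr +Asn DMSO cells, a log2 fold change of 0.00 (SE 0.06). PSMD1 averaged 357 ± 33.8 CPM in 24 hr -Asn DMSO cells and 322 ± 25.0 CPM in 24 hr +Asn DMSO cells, a log2 fold change of 0.15 (SE 0.11, adjusted p = 0.67). NFE2L1 was at 0.10 with the GC correction (adjusted p = 0.53).

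The members with an unadjusted p under 0.05 in this comparison were PSME2 (log2 fold change -0.26), PSMB2 (-0.18), PSMB4 (-0.29), PSMC4 (-0.19) and PSME1 (0.16), each with an adjusted p of 0.67. The lowest value was -0.55 for PSMA6, on few counts (SE 0.34, adjusted p = 0.67), and PSMB6 gave -0.25 (SE 0.15, adjusted p = 0.67). The median was -0.15 over the 6 beta subunits, 0.04 over all members and 0.01 over all genes.

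The withdrawal response of PSME3 differed between the times. The 24-hour log2 fold change minus the 6-hour one was 0.41 (SE 0.09, adjusted p = 0.014), the only called member, against 1.22% of all genes called, 0.195% higher and 1.03% lower. PSME3 averaged 389 ± 21.5 CPM at 6 hours and 306 ± 5.63 CPM at 24 hours in +Asn DMSO cells. In -Asn DMSO cells it averaged 292 ± 7.24 and 306 ± 13.8 CPM, so its level moved mainly in the fed cells. The call was lost without 6 hr +Asn DMSO replicate 3 (adjusted p = 0.065) or without 24 hr -Asn DMSO replicate 3 (0.058), and with no filter on low counts its adjusted p was 0.44. For PSMD1 the same difference was 0.57 (SE 0.15, adjusted p = 0.079), which passed the threshold with DESeq2 (0.025), without the filter (0.043), without the 3 GC-skewed libraries (0.0023) and with the GC correction (3.6e-05). For NFE2L1 it was -0.35 (SE 0.12, adjusted p = 0.27), and -0.33 with the GC correction (adjusted p = 0.018).

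At 24 hours without asparagine, ISRIB moved proteasome genes in both directions. PSMD1 and PSME3 fell most, the activators PSME1 and PSME4 and the alpha subunits PSMA1 and PSMA5 fell less, and 3 beta subunits, 3 ATPases and PSMD8 rose. In total 7 members rose and 6 fell of 37 (35.1%), against 21.7% of all genes called, 10.1% higher and 11.6% lower. The median log2 fold change was -0.05 over the members and 0.00 over all genes. NFE2L1 itself had 199.9, 168 and 167 CPM in 24 hr -Asn ISRIB libraries, against 190.4, 182 and 183 CPM in 24 hr -Asn DMSO libraries, with overlapping ranges and a log2 fold change of -0.05 (SE 0.09, adjusted p = 0.7).

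PSMD1 had 154, 167 and 161 CPM in 24 hr -Asn ISRIB libraries, against 365, 320 and 386 CPM in 24 hr -Asn DMSO libraries. It was thus at 0.45 times its vehicle level (log2 fold change -1.15, SE 0.11, adjusted p = 4.1e-07), and no ISRIB library came near the lowest vehicle library. Of the other 11 non-ATPase subunits of the 19S particle, PSMD8 rose and 10 were not called, with log2 fold changes of -0.20 to -0.01. Its levels in 24 hr +Asn ISRIB libraries were 322, 317 and 408 CPM, and in 24 hr +Asn DMSO libraries 350.5, 305 and 309 CPM, so the low level appeared where ISRIB and asparagine withdrawal were combined.

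PSME3 had 189.7, 191 and 183 CPM in 24 hr -Asn ISRIB libraries, against 294, 303 and 321 CPM in 24 hr -Asn DMSO libraries. Its log2 fold change was -0.70 (SE 0.06, adjusted p = 1.7e-07), 0.61 times the vehicle level, and the ISRIB libraries lay within a few CPM of each other. PSME1, the alpha chain of PA28, had 136, 134 and 124 CPM with ISRIB, against 156, 159 and 166 CPM with vehicle (log2 fold change -0.29, SE 0.08, adjusted p = 0.01). PSME4 had 112, 129 and 117 CPM with ISRIB, against 176, 152 and 169 CPM with vehicle (-0.48, SE 0.13, adjusted p = 0.013). PSME2, the partner of PSME1, overlapped between the groups and gave 0.06 (adjusted p = 0.72), with about as many counts in its pseudogene as in the gene. The 4 activator transcripts together summed to 475 ± 10.4 CPM in 24 hr -Asn ISRIB cells and 667 ± 19.8 CPM in 24 hr -Asn DMSO cells (SD, n = 3 each), and to 663 ± 26.0 CPM in 24 hr +Asn ISRIB cells.

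Among the alpha subunits, which form the outer rings of the core, 2 of 7 fell. PSMA1 had 21.6, 26.7 and 26.3 CPM in 24 hr -Asn ISRIB libraries, against 33.7, 32.1 and 39.6 CPM in 24 hr -Asn DMSO libraries (log2 fold change -0.50, SE 0.13, adjusted p = 0.011). PSMA5 had 145, 148 and 147 CPM with ISRIB, against 161, 174 and 198 CPM with vehicle (-0.28, SE 0.07, adjusted p = 0.0086). For both genes every ISRIB library was below every vehicle library. PSMA6 had the largest value of the class, 0.93 (adjusted p = 0.051), which became 0.20 (adjusted p = 0.16) when its pseudogenes were added to its counts. Its call depended on the fit, with an adjusted p of 0.027 with DESeq2 and 1.2e-05 with no filter on low counts. PSMA4 had the smallest, at -0.10.

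Among the beta subunits, which form the inner rings, 3 of 6 rose and none fell. PSMB6, which carries the caspase-like protease site, had 178, 149 and 167 CPM in 24 hr -Asn ISRIB libraries, against 106, 131 and 118 CPM in 24 hr -Asn DMSO libraries (log2 fold change 0.47, SE 0.15, adjusted p = 0.025). PSMB7, with the trypsin-like site, had 239, 231 and 224 CPM with ISRIB, against 190, 194 and 199 CPM with vehicle (0.25, SE 0.06, adjusted p = 0.0084). PSMB4, a structural beta subunit, had 158, 154 and 168 CPM with ISRIB, against 104, 134 and 136 CPM with vehicle (0.36, SE 0.12, adjusted p = 0.031). PSMB5, with the chymotrypsin-like site, had 77.1, 69.3 and 75.4 CPM with ISRIB, against 71.6, 80.6 and 82.2 CPM with vehicle. Its ranges overlapped and its log2 fold change was -0.08, the smallest of the class. PSMB10 was at 2.68, 2.56 and 2.73 CPM with ISRIB, against 2.44, 3.14 and 1.55 CPM with vehicle (0.16, adjusted p = 0.67).

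Among the ATPases that form the ring of the 19S base, PSMC3, PSMC4 and PSMC5 rose and none fell. PSMC4 had 169, 161 and 169.8 CPM in 24 hr -Asn ISRIB libraries, against 126, 133 and 140.2 CPM in 24 hr -Asn DMSO libraries (log2 fold change 0.33, SE 0.08, adjusted p = 0.0056). PSMC3 had 267, 251 and 260.3 CPM with ISRIB, against 213, 208 and 218 CPM with vehicle (0.29, SE 0.07, adjusted p = 0.0055). PSMC5 averaged 187 ± 4.23 CPM with ISRIB and 159 ± 0.93 CPM with vehicle (0.24, SE 0.07, adjusted p = 0.023). The remaining ATPases were not called: PSMC2 gave -0.04, PSMC6 gave -0.37 (adjusted p = 0.17), and PSMC1 had too few counts to read. PSMD8, a lid subunit that helps join lid and base, had 127, 128 and 134 CPM with ISRIB, against 93.5, 96.5 and 97.2 CPM with vehicle (0.44, SE 0.08, adjusted p = 0.0005). With its pseudogene added the value was 0.47. PSMD11, another lid subunit, gave -0.01.

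**Figure D2:**
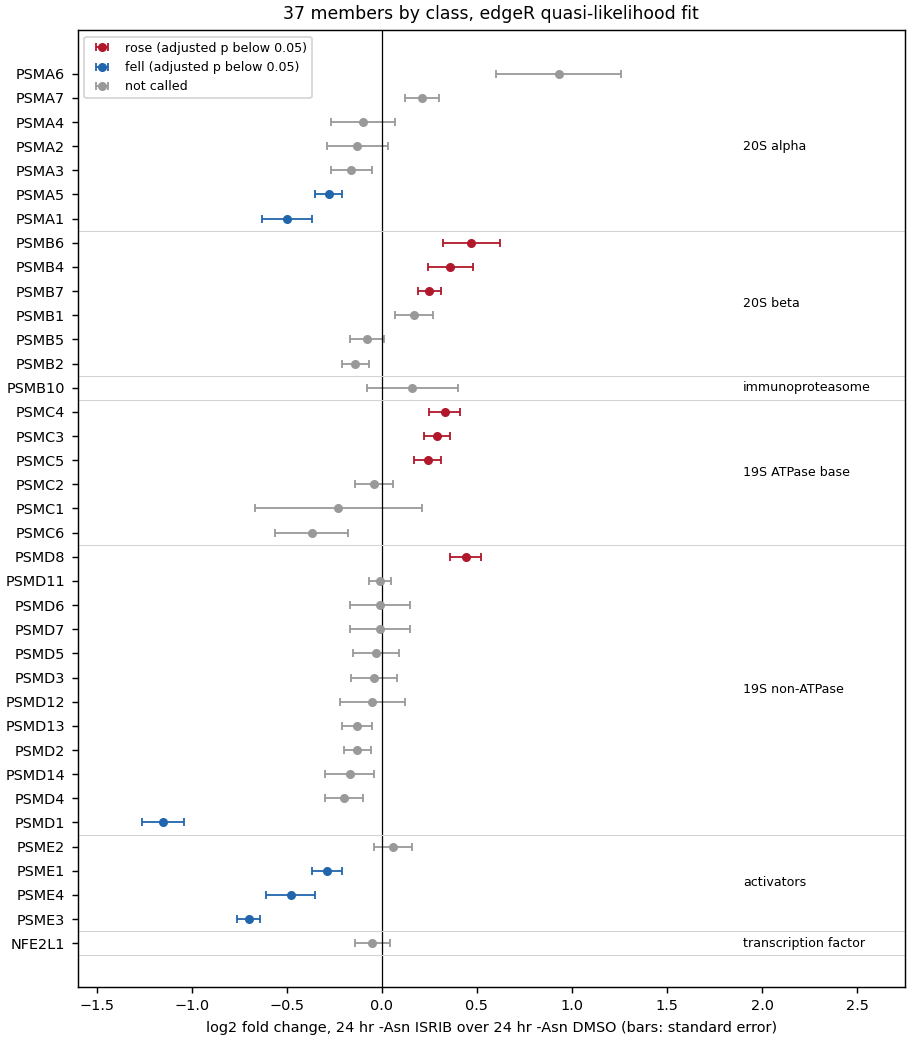
Log2 fold change of each of 37 members for 24 hr -Asn ISRIB over 24 hr -Asn DMSO, by class, with bars for the standard error. Rises (red) fall among beta subunits, ATPases and PSMD8, and falls (blue) among the activators, PSMA1, PSMA5 and PSMD1, while grey members were not called.

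The classes thus had different medians, though none of them was tested as a set. The median log2 fold change was -0.13 for the alpha and 0.21 for the beta subunits, 0.10 for the ATPases, -0.05 for the non-ATPase subunits and -0.38 for the activators. The ATPase median includes PSMC1 (-0.23), which had too few counts to read. It was 0.24 where only the 2 groups compared entered the fit, while the other class medians kept these values. Summed levels moved less, with rises and falls within each sum: the 13 core subunits summed to 1871 ± 15 CPM in 24 hr -Asn ISRIB cells and 1778 ± 84.5 CPM in 24 hr -Asn DMSO cells, and the 18 subunits of the 19S particle to 2541 ± 41.6 CPM with ISRIB and 2697 ± 101 CPM with vehicle (SD, n = 3 each). All 36 measured proteasome genes, activators included, summed to 4889 ± 59.1 CPM with ISRIB and 5145 ± 187 CPM with vehicle.

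**Figure D3:**
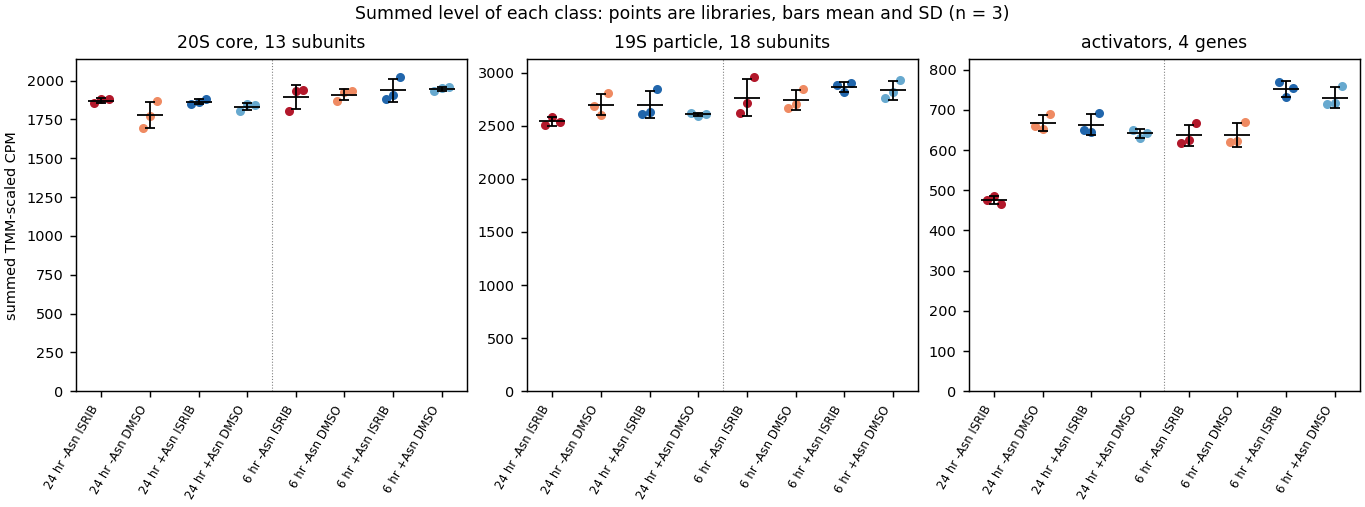
Summed CPM of 13 core subunits, 18 subunits of the 19S particle and 4 activators in each library, with bars for the mean and SD of 3. The activators of the 24 hr -Asn ISRIB libraries (465 to 485 CPM) lie below those of every other group, and the sums of the other classes differ less.

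GC content moved with these changes. Over all genes the correlation of log2 fold change with GC content was 0.407 in this comparison. Over the 37 members Pearson's r was 0.33 and Spearman's rho 0.40, as a description of genes that share the same libraries. The 7 members that rose had exon GC contents of 48.7% to 56.7% (median 54.8%), the 6 that fell 40.5% to 52.4% (median 43.6%), and the 24 not called 36.9% to 62.0% (median 45.6%). After a correction for GC content the members' r was -0.06. PSMD1 was then at -1.01, PSME3 at -0.71, PSMD8 at 0.28 (adjusted p = 0.0066), PSMC4 at 0.20 (adjusted p = 0.016), PSME4 at -0.29 (adjusted p = 0.00055) and PSMB6 at 0.36 (adjusted p = 0.0025). PSMA5 (-0.07, adjusted p = 0.67) and PSMC3 (0.16, adjusted p = 0.052) were no longer called, and NFE2L1 fell by 0.19 (adjusted p = 0.013). With this correction 8 members rose and 7 fell, against 30.5% of all genes called. The median of the alpha subunits turned to 0.08 and that of the non-ATPase subunits to 0.04. That of the beta subunits was 0.29, of the ATPases 0.15 and of the activators -0.32.

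**Figure D4:**
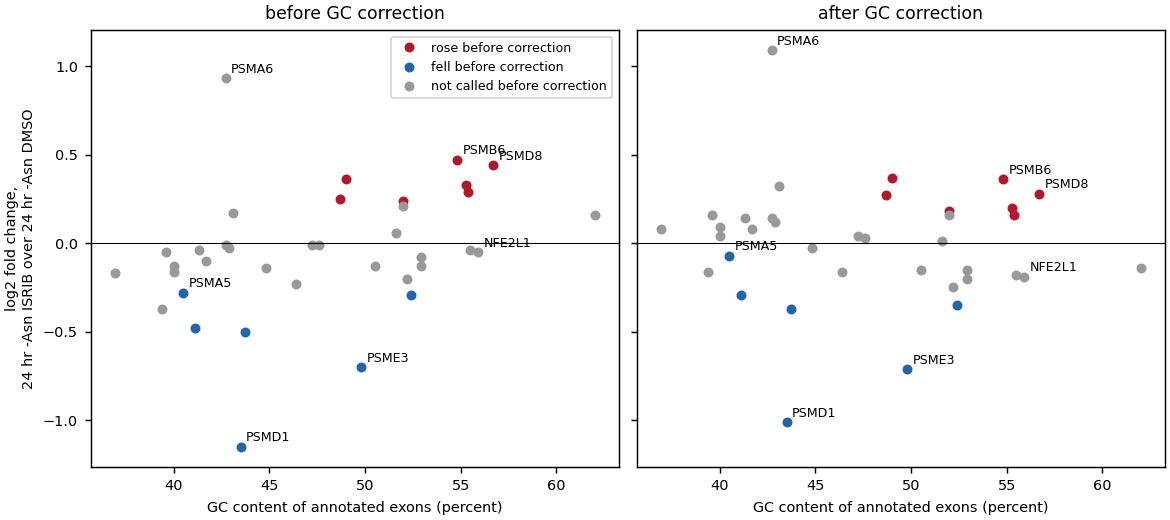
Log2 fold change of the members for 24 hr -Asn ISRIB over 24 hr -Asn DMSO against the GC content of their exons in percent, before and after a correction for GC content. The upward slope over the members before the correction (r = 0.33) is near flat after it (r = -0.06), while PSMD1 and PSME3 stay at the bottom of both plots.

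PSMD1, PSME3, PSMD8, PSMC3, PSMC4 and PSMB7 kept their calls in this comparison in all 6 fits that left out 1 library. PSMA5 lost its call without 24 hr -Asn DMSO replicate 3 (adjusted p = 0.077), PSMA1 without 24 hr -Asn ISRIB replicate 1 (0.078) or 24 hr -Asn DMSO replicate 3 (0.072), and PSME4 without replicate 1 of either group (0.066 without the ISRIB library and 0.057 without the vehicle library). PSME1 lost it without replicate 3 of either group (0.051 to 0.052). PSMB6 lost its call without replicate 1 or 3 of either group (0.073 to 0.12), and PSMB4 without replicate 1 of either group or 24 hr -Asn ISRIB replicate 3 (0.073 to 0.18). PSMC5 lost it in 5 of the 6 fits (0.065 to 0.09) and kept it without 24 hr -Asn ISRIB replicate 2. The count of called members was 8 without 24 hr -Asn ISRIB replicate 1 (11.7% of all genes) and 8 without 24 hr -Asn DMSO replicate 3 (12.5%). With no filter on low counts it was 9 (10.7% of all genes): PSMC3 (adjusted p = 0.072), PSMB7 (0.14), PSMA5 (0.14), PSME1 (0.13) and PSMC5 (0.2) lost their calls, and PSMA6 gained a call.

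Set against ISRIB-treated cells with asparagine, the same 24 hr -Asn ISRIB libraries gave 4 members higher and 7 lower (22.1% of all genes were called, 9.97% higher and 12.2% lower). These libraries also enter the comparison with vehicle, so the values stand beside it and are not a second measurement. The log2 fold change was -1.12 for PSMD1 (adjusted p = 3.6e-07) and -0.71 for PSME3 (adjusted p = 7.8e-08). PSMA1 gave -0.52, PSME4 -0.42, PSMA5 -0.29, PSMB2 -0.27 and PSME1 -0.24. PSMD8 gave 0.39, PSMC3 0.32, PSMB7 0.26 and PSMC5 0.21. PSMB4, PSMB6 and PSMC4, which rose against vehicle, were not called here. PSMC4 gave 0.20 (adjusted p = 0.069), and 0.19 with DESeq2 (adjusted p = 0.046). Without 24 hr +Asn ISRIB replicate 3 the calls of PSMA1 (adjusted p = 0.058), PSME4 (0.16), PSME1 (0.13) and PSMC5 (0.21) were lost. Without 24 hr -Asn ISRIB replicate 1 those of PSMA1 (0.057), PSME4 (0.11) and PSMC5 (0.14) were lost, and without its replicate 3 those of PSME4 (0.074), PSME1 (0.1) and PSMC5 (0.1). PSMC5 was also not called without 24 hr -Asn ISRIB replicate 2 (0.074) or 24 hr +Asn ISRIB replicate 2 (0.059). For PSMB2, a structural beta subunit, the 24 hr -Asn ISRIB libraries had 192, 190.4 and 205 CPM, against 240.2, 241 and 227 CPM in 24 hr +Asn ISRIB libraries. The count of called members was 7 without 24 hr +Asn ISRIB replicate 3, which is 1 of the 3 GC-skewed libraries (15.5% of all genes). Without all 3 of those it was 4 higher and 8 lower (23.1% of all genes), with PSMC5 (adjusted p = 0.16) and PSME1 (0.051) no longer called.

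The calls of PSMD1, PSME3 and PSMD8 in this comparison held under all 10 alternatives besides leaving out 1 library. Where only these 2 groups entered the fit the other 8 were all lost, with adjusted p from 0.068 for PSMA1 to 0.22 for PSMC5. That fit called 9.37% of all genes. With no filter on low counts 6 were lost: PSMC3 (0.053), PSMA5 (0.086), PSMB2 (0.12), PSMB7 (0.17), PSME1 (0.21) and PSMC5 (0.37). With the GC correction PSMA5 was at -0.15 (adjusted p = 0.34) and PSMB2 at -0.20 (0.13), both uncalled, while PSMC3 was at 0.21 and PSME4 at -0.27, both called. NFE2L1, at -0.06 before the correction (adjusted p = 0.66), was then at -0.17 (adjusted p = 0.026).

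In medium with asparagine ISRIB called no member. By edgeR 0 members and 0% of all genes were called at either time, DESeq2 called 0 members, and unadjusted p under 0.05 was reached by 1 member at 6 hours and 0 at 24 hours. At 24 hours PSMD1 averaged 349 ± 51.3 CPM in +Asn ISRIB cells and 322 ± 25.0 CPM in +Asn DMSO cells, and PSME3 averaged 308 ± 6.52 CPM with ISRIB and 306 ± 5.63 CPM with vehicle (SD, n = 3 each). NFE2L1 gave log2 fold changes of -0.07 at 6 hours and 0.00 at 24 hours.

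**Figure D5:**
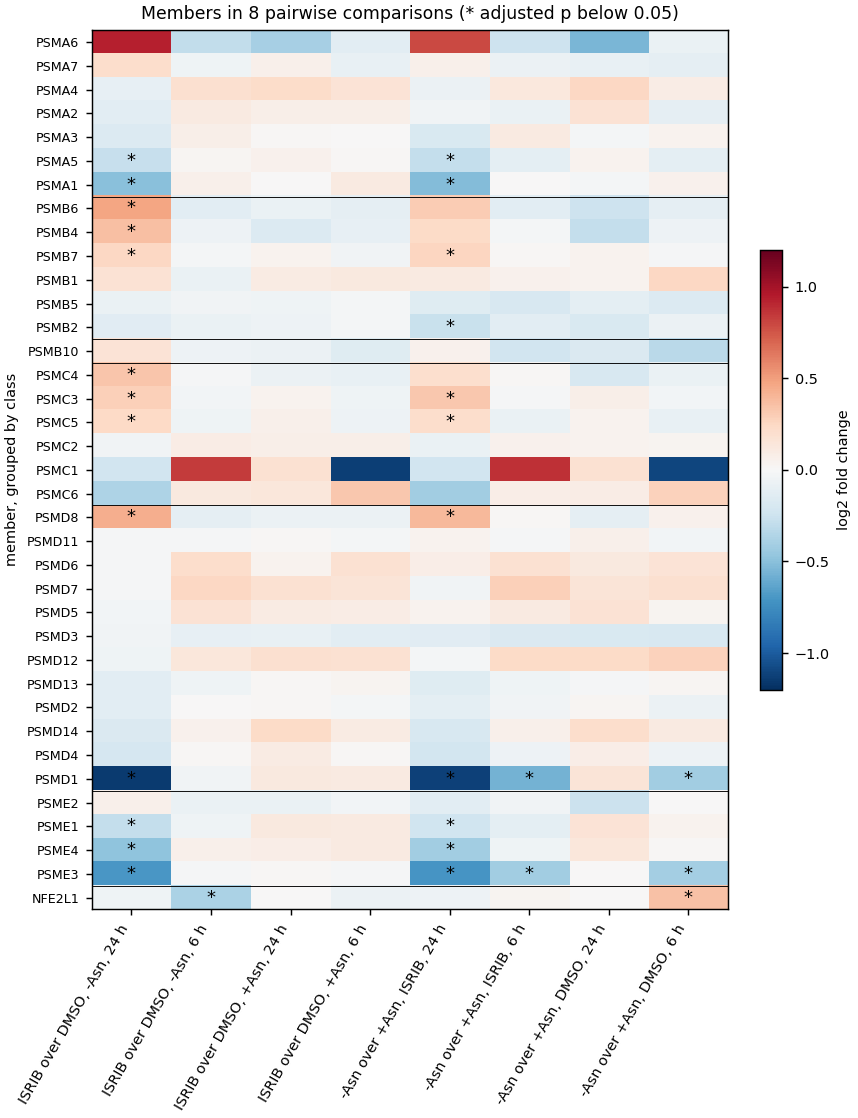
Log2 fold change of 37 members (rows, by class) in 8 comparisons (columns), with a colour scale for the log2 value and a star where the adjusted p was below 0.05. Stars crowd into the 24-hour columns of -Asn ISRIB cells and are absent from the columns of ISRIB in medium with asparagine.

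The effect of ISRIB at 24 hours was then compared between media, as the difference of its log2 fold changes without and with asparagine. For 6 members this difference was called, against 9.06% of all genes, 3.47% higher and 5.59% lower. It was -1.27 for PSMD1 (SE 0.15, adjusted p = 3.2e-05), -0.72 for PSME3 (SE 0.09, adjusted p = 3.8e-05) and 0.51 for PSMD8 (SE 0.11, adjusted p = 0.0068), and these 3 were called in all 12 fits that left out 1 library. PSMD8 was at 0.26 with the GC correction and no longer called (adjusted p = 0.093). The difference was -0.41 for PSME1 (adjusted p = 0.023), -0.33 for PSMA5 (adjusted p = 0.043) and 0.39 for PSMC4 (adjusted p = 0.03). PSME1 lost its call without +Asn DMSO replicate 2 or 3 or replicate 3 of any other 24-hour group (adjusted p 0.055 to 0.068). PSMA5 lost it in 8 of the 12 fits (0.051 to 0.13) and kept it without replicate 1 of either DMSO group, -Asn DMSO replicate 2 or +Asn ISRIB replicate 2. PSMC4 lost it in 8 of the 12 fits (0.051 to 0.086) and kept it without replicate 1 of either +Asn group, -Asn ISRIB replicate 2 or -Asn DMSO replicate 3. The count of called members was 3 without 24 hr +Asn DMSO replicate 2 or 3, 24 hr +Asn ISRIB replicate 3 or 24 hr -Asn ISRIB replicate 3. In these fits 4.55% to 4.96% of all genes were called. The GC correction left PSMA5 at -0.05 (adjusted p = 0.86) and PSMC4 at 0.20 (0.11), both uncalled. PSMA5 (0.27), PSMC4 (0.16) and PSME1 (0.13) were uncalled with no filter on low counts, and PSMA5 (0.099) and PSMC4 (0.072) with only the groups compared. For NFE2L1 the difference was -0.06 (SE 0.12, adjusted p = 0.79), and -0.27 with the GC correction (adjusted p = 0.025).

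The effect of ISRIB without asparagine also differed between the times. The 24-hour minus the 6-hour log2 fold change was called for 4 members, against 7.59% of all genes, 3.35% higher and 4.24% lower. It was -1.12 for PSMD1 (SE 0.15, adjusted p = 0.00015), -0.69 for PSME3 (SE 0.09, adjusted p = 5.8e-05), 0.55 for PSMD8 (SE 0.11, adjusted p = 0.0044) and 0.32 for PSMC3 (SE 0.10, adjusted p = 0.049). PSMC3 lost this call in 11 of 12 fits that left out 1 library (adjusted p 0.054 to 0.14). It kept the call without 6 hr -Asn ISRIB replicate 2, where the count was 7 (9.51% of all genes). After the GC correction PSMC3 was at 0.14 (adjusted p = 0.3) and PSMD8 at 0.33 (adjusted p = 0.034). The PSMC3 call also ended with no filter on low counts (0.27), with only the groups compared (0.11), without the 3 GC-skewed libraries (0.062), with RLE scaling (0.054) and with pseudogene counts summed (0.055). NFE2L1, which fell with ISRIB at 6 hours and was not called at 24 hours, gave 0.33 (SE 0.12, adjusted p = 0.11; 0.13 with the GC correction), so a difference between the times was not shown for it.

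Time in culture moved some members without withdrawal or drug. In +Asn DMSO cells 4 members were lower at 24 than at 6 hours and none higher, against 18.8% of all genes called, 9.34% higher and 9.47% lower. NFE2L1 averaged 185 ± 9.03 CPM at 24 hours and 227 ± 7.65 CPM at 6 hours (SD, n = 3 each; log2 fold change -0.29, SE 0.09, adjusted p = 0.024), and its call was lost without 24 hr +Asn DMSO replicate 1 or 3 or 6 hr +Asn DMSO replicate 2 or 3 (0.062 to 0.1). PSME3 averaged 306 ± 5.63 CPM at 24 hours and 389 ± 21.5 CPM at 6 hours (-0.35, adjusted p = 0.00046). The lid subunit PSMD11 gave -0.24 and the base scaffold PSMD2 -0.20, a call that PSMD2 kept only without 6 hr +Asn DMSO replicate 1. The count was 2 when any 1 of the 4 libraries named for NFE2L1 was left out (11.9% to 12.6% of all genes). Without the 3 GC-skewed libraries it was 10 (29.4% of all genes). With no filter on low counts only PSME3 was called (adjusted p 0.091 for NFE2L1, 0.2 for PSMD11 and 0.3 for PSMD2), and PSMD2 was uncalled with the GC correction (0.12), with only the groups compared (0.093) and with pseudogene counts summed (0.053).

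In -Asn ISRIB cells 3 members were higher and 10 lower at 24 than at 6 hours, against 32.3% of all genes called, 14.5% higher and 17.8% lower. PSME3 averaged 188 ± 3.96 CPM at 24 hours and 290.1 ± 11.4 CPM at 6 hours (log2 fold change -0.63, SE 0.06, adjusted p = 2.3e-07). PSMD1 averaged 160.5 ± 6.26 CPM at 24 hours and 245 ± 35.3 CPM at 6 hours (-0.61, SE 0.11, adjusted p = 0.00023). NFE2L1 averaged 178 ± 18.7 CPM at 24 hours and 221 ± 19.7 CPM at 6 hours (-0.31, SE 0.09, adjusted p = 0.0097), a call lost without replicate 2 or 3 at 24 hours or replicate 2 at 6 hours (0.053 to 0.066). The next largest falls were -0.56 for PSME4 and -0.54 for PSMA1, and the rises were 0.26 for PSMD8, 0.24 for PSMC3 and 0.23 for PSMC5. These rises were all uncalled without 6 hr -Asn ISRIB replicate 3 (adjusted p 0.091, 0.073 and 0.078 in that order), PSMC3 and PSMC5 also without 24 hr -Asn ISRIB replicate 1 (0.052 and 0.067), and PSMC5 without 6 hr -Asn ISRIB replicate 1 (0.052). NFE2L1, all 3 rises and 4 of the falls were uncalled with no filter on low counts (adjusted p 0.055 to 0.17) and with only the groups compared (0.057 to 0.13). After the GC correction PSMD8 was at 0.14 (adjusted p = 0.15), PSMC3 at 0.13 (0.082), PSMA5 at -0.17 (0.24, against -0.32 before it) and PSMA3 at -0.16 (0.15, against -0.31), all uncalled, and NFE2L1 was at -0.42. Without the 3 GC-skewed libraries PSMD8 (0.061) and PSMA3 (0.097) were uncalled.

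Genes that work with the proteasome were followed as lists. Of all genes, 4.57% were called after 6 hours without asparagine in vehicle. For ISRIB without asparagine the share was 2.19% at 6 hours and 21.7% at 24 hours. Of 16 genes for processing, partners and relatives of NFE2L1, 2 rose and none fell after 6 hours without asparagine in vehicle (list median -0.01). NFE2L2, the oxidative stress relative of NFE2L1, averaged 379 ± 18.9 CPM in 6 hr -Asn DMSO cells and 188 ± 11 CPM in 6 hr +Asn DMSO cells (log2 fold change 1.01, SE 0.16, adjusted p = 0.00026). OGT, the enzyme that adds O-GlcNAc to proteins including NFE2L1, averaged 246 ± 17.8 CPM in 6 hr -Asn DMSO cells and 158 ± 12.7 CPM in 6 hr +Asn DMSO cells (0.64, SE 0.09, adjusted p = 0.00011). With ISRIB at 6 hours OGT was the only one of the list to fall, to 172 ± 17.3 CPM in 6 hr -Asn ISRIB cells (-0.52, adjusted p = 0.0017), and its withdrawal response differed between ISRIB and vehicle by -0.57 (adjusted p = 0.044). At 24 hours the only call of the list was NFE2L3, another relative, with 33.3 ± 3.96 CPM in 24 hr -Asn ISRIB cells and 61.0 ± 1.74 CPM in 24 hr -Asn DMSO cells (-0.88, SE 0.17, adjusted p = 0.0012).

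For the assembly factors and the inhibitor of the proteasome, 0 of 11 were called at 6 hours in either -Asn comparison with DMSO cells. With ISRIB at 24 hours without asparagine 2 rose and 1 fell (list median 0.07), against 21.7% of all genes called. PSMF1, an inhibitor of the 20S core, averaged 306 ± 9.39 CPM in 24 hr -Asn ISRIB cells and 233 ± 13.5 CPM in 24 hr -Asn DMSO cells (log2 fold change 0.39, SE 0.07, adjusted p = 0.0006). AKIRIN2, which brings proteasomes into the nucleus, gave 0.42 (adjusted p = 0.0018), and ECPAS, which binds 26S proteasomes, gave -0.31 (adjusted p = 0.0098). POMP, the maturation factor of the core, was at 102 ± 11.6 CPM in 24 hr -Asn ISRIB cells and 106 ± 2.07 CPM in 24 hr -Asn DMSO cells (-0.05, adjusted p = 0.79).

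Of 11 further 19S subunits, ubiquitin receptors and proteasome deubiquitinases, 1 fell and none rose after 6 hours without asparagine in vehicle: UBQLN4, a shuttle receptor, with -0.38 (adjusted p = 0.034). In the same list 2 rose and 4 fell with ISRIB at 24 hours without asparagine (list median -0.21). Of all genes 21.7% were called there, 10.1% higher and 11.6% lower. TXNL1, a proteasome-bound thioredoxin, averaged 62.5 ± 6.91 CPM in 24 hr -Asn ISRIB cells and 104 ± 9.17 CPM in 24 hr -Asn DMSO cells (log2 fold change -0.73, adjusted p = 0.0015). The shuttle receptors RAD23B and UBQLN1 fell too, RAD23B with -0.35 (adjusted p = 0.0091) and UBQLN1 with -0.37 (adjusted p = 0.026). RAD23B has an exon GC content of 42.3%, UBQLN1 42.1% and TXNL1 41.2%, and their values with the GC correction are not reported here.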

How the data were processed

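RNA-seq counts per gene were used as the authors deposited them for 24 libraries. Per the submitters' processing notes, Bowtie2, featureCounts and DESeq2 were used with hg38, and versions are not given in the sources used here. A deposited log2 table, variance-stabilized by the authors, served as an alternative. Counts were fitted with edgeR 4.0.16 (R 4.3.3): TMM scaling, filterByExpr, 1 quasi-likelihood fit over all 8 groups (16 residual degrees of freedom) and Benjamini-Hochberg adjustment over 17409 genes. Fold changes are the first-named group over the second, and levels are TMM-scaled CPM. Exon lengths, GC content and overlaps came from GENCODE 29, which held 36620 of the table's genes. The members, lists and tests were chosen with earlier results of these data known. In each comparison NFE2L1, up to 4 called rises and 4 called falls, class extremes, and up to 4 list genes of smallest adjusted p and 2 of largest p were named, except that some list genes are not reported here. Every member called at 24 hours in -Asn ISRIB cells against either other group is named as well, a choice made after the values were seen. Biological triplicates are stated, and what a replicate number shares is not. Same-numbered libraries deviated together, with every correlation over 0.1, for withdrawal in vehicle at 6 hours (0.304 to 0.339) and 24 hours (0.187 to 0.35) and for ISRIB without asparagine at 6 hours (0.327 to 0.47). Alternatives were DESeq2 1.42.0, RLE scaling, no filter, only the groups compared, a replicate block, a GC correction with and without the block, limma 3.58.1 on the deposited log2 values, summed pseudogene counts, and leaving out each library or the 3 GC-skewed ones. The fit was also run on simulated counts, made without GC-dependent differences or effects shared by a replicate number. That run cannot show the part of either here.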

Additional observations from a re-analysis of the deposited data

Results flagged for a closer look

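The effect of ISRIB at 24 hours differed between medium without and with asparagine for 6 members, by the test of the difference of log2 fold changes (edgeR). The difference was -1.27 for PSMD1, -0.72 for PSME3, -0.41 for PSME1, -0.33 for PSMA5, 0.39 for PSMC4 and 0.51 for PSMD8. With the GC correction 3 of these were no longer called: PSMA5 (-0.05, adjusted p = 0.86), PSMC4 (0.20, adjusted p = 0.11) and PSMD8 (0.26, adjusted p = 0.093). PSMA5 and PSMC4 each also lost the call in 8 of 12 fits that left out 1 library.

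The effect of ISRIB without asparagine differed between 24 and 6 hours by the same kind of test. The 24-hour minus the 6-hour value was -1.12 for PSMD1, -0.69 for PSME3, 0.32 for PSMC3 and 0.55 for PSMD8. PSMC3 was at 0.14 with the GC correction (adjusted p = 0.3). In vehicle, the effect of asparagine withdrawal on PSME3 differed between 24 and 6 hours by 0.41, with an adjusted p of 0.44 when no filter on low counts was used. Its level moved mainly in fed vehicle cells, from 389 CPM at 6 hours to 306 CPM at 24 hours. Starved vehicle cells averaged 292 and 306 CPM.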

How the results depend on the processing

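No called value changed sign under any alternative in the 68 gene results checked. Uncalled NFE2L1 values near 0 did: with the GC correction ISRIB with asparagine at 6 hours gave 0.01 (against -0.07) and withdrawal in vehicle at 24 hours 0.10 (against -0.00), and withdrawal in ISRIB at 6 hours (0.03) ran from -0.04 to 0.10 when 1 library was left out. Counts below are members called, and the percentages in brackets are the share of all genes called in the same setting. Without a filter on low counts they were 0 for ISRIB without asparagine at 6 hours (1.26%) and 7 for withdrawal in ISRIB at 24 hours (10.2%). For 24 against 6 hours they were 1 in +Asn DMSO (8.25%) and 8 in -Asn ISRIB (14.9%). With only the groups compared they were 0 for ISRIB without asparagine at 6 hours (0.874%). Withdrawal in ISRIB then had 0 and 3 at 6 and 24 hours (0% and 9.37%). The time difference of withdrawal in vehicle had 2 (1.89%) and time in -Asn ISRIB 5 (20.6%). DESeq2 gave 10 for the 24-hour difference of the ISRIB effect between media (14%) and 9 for time in +Asn DMSO (20.4%). It gave 2 and 10 for the time differences of withdrawal and of ISRIB (2.03% and 11.3%). With the GC correction the counts were 1 for the 6-hour difference between media (1.81%) and 10 for time in +Asn DMSO (32.8%). The time differences then had 3 and 8 (4.58% and 16.7%). Without the 3 GC-skewed libraries, the time difference of withdrawal had 2 (2.78%) and time in +Asn DMSO 10 (29.4%). The replicate block changed no member's call where same-numbered libraries deviated together in every pair (3, 0 and 1 members, with 5.7%, 0.00574% and 2.79%). Elsewhere this was not shown for every pair, and 16 of 24 libraries had their best correlation within their own number. The block gave 2 and 7 for the time differences of withdrawal and ISRIB (1.55% and 10.2%). With the GC correction and the block together, counts were 20 for withdrawal in ISRIB at 24 hours (37.8%) and 13 for time in +Asn DMSO (35.7%). The differences between media at 6 and 24 hours had 1 and 12 (2.46% and 21.3%). The time differences had 3 and 10 (6.19% and 20.4%).

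Leaving out 1 library at a time gave 1 to 3 for withdrawal in vehicle at 6 hours, 0 to 1 and 8 to 13 for ISRIB without asparagine at 6 and 24 hours, 7 to 12 for withdrawal in ISRIB at 24 hours, 3 to 9 for the 24-hour difference between media, 0 to 1 and 3 to 7 for the time differences of withdrawal and ISRIB, 2 to 4 for time in +Asn DMSO and 10 to 14 in -Asn ISRIB. In the same fits the share of all genes called ran over 11.7% to 21.1% for ISRIB without asparagine at 24 hours. For withdrawal in ISRIB at 24 hours it ran over 13.7% to 21.7%, and for the 24-hour difference between media over 4.55% to 12.6%. At 6 hours it was 2.7% to 3.35% for withdrawal in vehicle and 1.38% to 1.99% for ISRIB without asparagine. The time differences of withdrawal and ISRIB had 0.875% to 1.02% and 3.81% to 9.51%. Time in +Asn DMSO had 11.9% to 15.8%, and time in -Asn ISRIB 23.3% to 31.9%. The cause of these shifts was not tested. With 3 libraries a group and GC-dependent differences between libraries, changes smaller than about the spread between replicates could not be detected, and PSMC1, PSMA2, PSMA6 and PSMB10 rest on few counts.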

Other observations

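Of 12 listed ubiquitin genes and ligase adaptors, SQSTM1 was the only call with ISRIB at 24 hours without asparagine, against 21.7% of all genes. SQSTM1 is the autophagy receptor p62. It averaged 647 ± 98.5 CPM in 24 hr -Asn ISRIB cells and 430.1 ± 53.0 CPM in 24 hr -Asn DMSO cells (log2 fold change 0.59, SE 0.19, adjusted p = 0.031).

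Of 15 listed genes of antigen presentation, which uses peptides cut by the proteasome, 11 were tested. With ISRIB at 24 hours without asparagine 3 fell and none rose, against 21.7% of all genes called, 10.1% higher and 11.6% lower. The peptide-trimming enzyme ERAP1 averaged 16.4 ± 1.79 CPM in 24 hr -Asn ISRIB cells and 24.4 ± 1.92 CPM in 24 hr -Asn DMSO cells (log2 fold change -0.57, adjusted p = 0.0013). ERAP2, a related enzyme, gave -0.51 (adjusted p = 0.033). B2M, the light chain of class I molecules, was at 13.2 ± 1.75 CPM in 24 hr -Asn ISRIB cells and 14.2 ± 1.38 CPM in 24 hr -Asn DMSO cells (-0.11, adjusted p = 0.71).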
